A study of Rattus norvegicus with 16 samples.

Results

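The 300 circRNAs described here had the lowest m6A share in the rat spinal cord, measured as the signal of the m6A fraction against that of the remaining RNA. Among 14145 circRNA probes on the array, 11023 were well above background and free of an outlier mark in both fractions of all 8 rats. For each of these, the log2 value of the m6A fraction (IP) minus that of the remaining fraction (SUP) was averaged over the 8 rats of both groups, and the 300 lowest means were taken. The remaining 3122 probes did not pass this filter and could not be chosen. The ratio of IP to SUP therefore chose the members, and its low value is a description and not a result. The difference between the groups played no part in the choice. Each member is named by its probe on the array, since no table used here pairs the probes with host genes, sequences or positions in the genome, and it is not known whether members share a host gene.

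CircRNAs are made by back-splicing, which joins the ends of a transcript into a ring without a free end, and many are found in neural tissue. N6-methyladenosine (m6A) is a methyl mark that METTL3 and METTL14 write, FTO and ALKBH5 remove and YTH proteins read. An anti-m6A antibody pulls down RNA that carries the mark, so a circRNA whose molecules mostly lack it stays mainly in SUP. The share of the antibody-bound signal, IP / (IP + SUP), is called the m6A level and is given in percent or as log2(IP/SUP). Since the fractions were read in different dyes, the percent depends on their scaling and is no absolute stoichiometry. The m6A quantity is the log2 IP intensity, and expression is log2 of the sum of both intensities.

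The arrays compared the lumbar spinal cords of 8 adult male Sprague-Dawley rats, of which 4 formed each of the MT and NS groups. The MT group, the model of morphine tolerance, had received 10 μg of morphine hydrochloride in 10 μl by repeated intrathecal injection over 7 days, and the NS group 10 μl of normal saline on the same schedule. Both groups carried the intrathecal tube, and the tissue was taken 1 h after a last injection. Total RNA was split with the antibody, both fractions were treated with RNase R, which digests linear RNA, and IP (Cy5) and SUP (Cy3) were hybridised together, with 1 array per rat and no dye swap. The label of the tissue could not be checked against marker genes, because the probes carry no gene names here.

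All 8 arrays lay on 1 slide and were read in 1 scan, with the groups on separate rows of it, so that row and group cannot be told apart. Arrays have no read depth, each circRNA had 1 spot per array, and 4 rats per group limit the precision. Values below are log2 intensities scaled to the 102 spike-in probes of each array and channel, unless another scaling is named. The means that chose the members and the ranks within single rats use the log2 values that the authors deposited. Over all circRNAs tested, the median SUP intensity was 8.90 and 8.93 in NS replicates 3 and 4 and lay between 9.37 and 9.84 in the other 6 rats. The median IP intensity was 8.39 in MT replicate 4 and lay between 8.50 and 8.84 in the other 7. These 3 rats bear on the comparisons, which are given with and without them.

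The means that chose the members ran from -7.11 to -3.38, with a median of -3.95, against a median of -0.10 over the 11023 circRNAs that could be chosen. There were 141 members at or below -4, 18 at or below -5 and 2 at or below -6. Next to the limit the values were close together. ASCRPR009343 (-3.39), ASCRPR005318 (-3.38) and ASCRPR007689 (-3.38) lay just inside it. ASCRPR003482 (-3.37), ASCRPR002225 (-3.37) and ASCRPR000653 (-3.37) lay just outside. The last members are thus the end of a continuous range and not the edge of a separate class.

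In percent, the mean m6A level of the members lay between 0.618% and 8.17%, with a median of 5.24%, whereas the median over the circRNAs that could be chosen was 42.8%. Of those circRNAs, 135 had a mean level under 5%, and all 135 were members. The level was under 10% in 490, so that the list does not hold every circRNA with such a level.

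The low share was found in each rat separately. When the circRNAs were ranked in a single rat, between 237 (NS replicate 3) and 267 (NS replicate 2) of the 300 members were among its lowest 300. In every one of the 8 rats this held for 150 members, in at least 6 rats for 232, and no member had it in fewer than 2 rats. In none of the rats did a member lie above the median circRNA. Chosen on the NS rats alone, the list shared 270 of 300 members, and on the MT rats alone 277. These counts use the values of the choice and are a description.

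**Figure D1:**
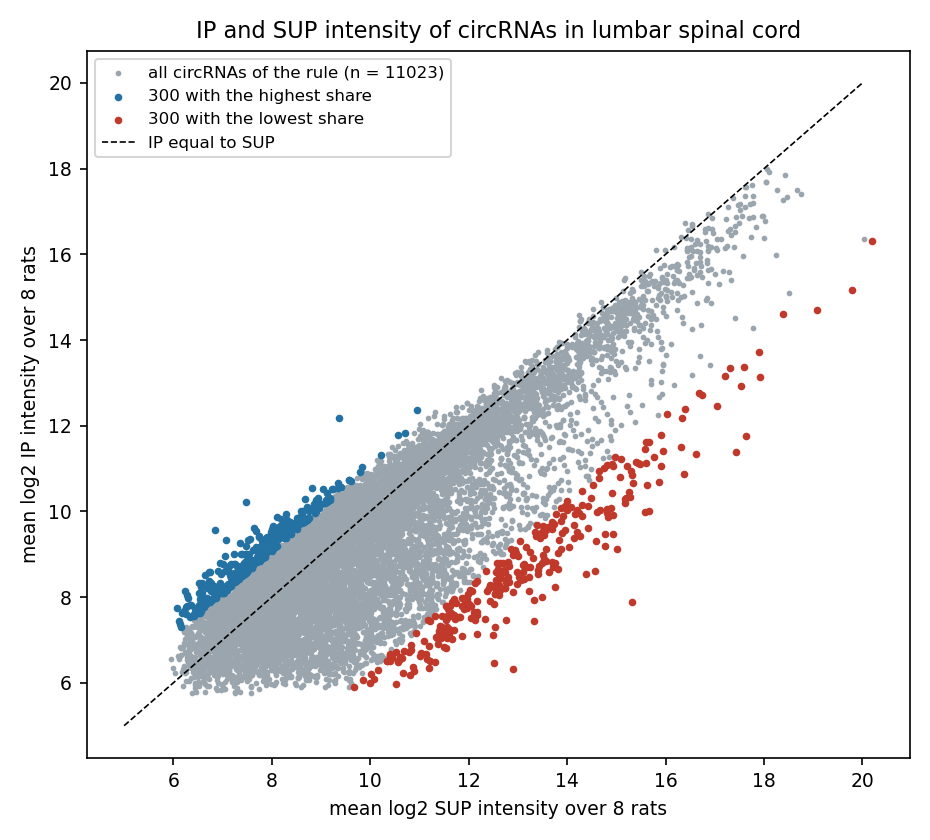
Mean log2 IP intensity (y axis) against mean log2 SUP intensity (x axis) over the 8 rats, 1 point per circRNA, for the 11023 circRNAs that could be chosen (grey), the 300 with the highest IP/SUP (blue) and the 300 members (red). The members form the lower right edge, at a median SUP intensity of 12.91 and a median IP intensity of 8.54, and the dashed line marks equal intensities.

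The lowest share of all was that of ASCRPR006435. Its m6A level was 0.437%, 0.713%, 0.561% and 0.238% in the 4 MT rats, in order of replicate, and 0.811%, 0.457%, 0.860% and 0.870% in NS replicates 1 to 4. The level was under 1% in each rat, and the groups overlapped. Its SUP spot was bright (mean 15.87 in MT and 14.76 in NS), while its IP spot had a mean of 8.09 in MT and 7.67 in NS. ASCRPR001879 followed, at 0.881% ± 0.335 (SD, n = 4) in MT and 1.34% ± 0.330 in NS. It was much dimmer, with a mean IP intensity of 6.48 and 6.17 in the groups, near the lowest mean IP of 5.75 among the circRNAs that could be chosen.

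The other 8 of the 10 lowest circRNAs had group means between 1.40% and 2.24%. ASCRPR002436 and ASCRPR002066 were at 1.40% and 1.48% in MT and at 1.83% and 2.24% in NS. For ASCRPR010289, ASCRPR011698, ASCRPR005322 and ASCRPR005806 the MT and NS means differed by less than the spread between the rats of either group, for example 1.57% ± 0.488 against 1.69% ± 0.350 (SD, n = 4 each) for ASCRPR010289. ASCRPR010626 was the least even of the 10. Its level was 0.984%, 3.42%, 1.90% and 0.395% in the MT rats and 1.32%, 1.38%, 2.52% and 1.96% in the NS rats, so that both the highest and the lowest value were in the MT group. ASCRPR010927 spread in a like way, from 0.544% in MT replicate 4 to 2.85% in MT replicate 2. All 10 were in the lowest 300 of each of the 8 rats.

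Most members had bright SUP spots. Their median mean SUP intensity was 12.91, against 9.67 over the circRNAs that could be chosen and 7.60 over the 300 with the highest IP/SUP. Their median IP intensity was 8.54, against 8.98 over the circRNAs that could be chosen. The intensity of a spot also depends on its probe, so these values do not rank amounts of RNA between circRNAs. The filter bears on this contrast, because a circRNA had to be above background in IP to be chosen. With a low share that required a bright SUP spot, and the dimmest member in SUP had a mean of 9.67. A dim circRNA with as low a share would not have passed. Of the 300 circRNAs with the highest mean expression, 24 (8.0%) were members and 0 came from the 300 with the highest IP/SUP. Each of these sets holds 300 of the 11023 circRNAs that could be chosen. The filter bears on this count too, since the expression of a member is mostly its SUP signal. None of the 4800 spots of the members was saturated, and the members lay evenly over the array, with 23.7% to 25.7% of them in each of the 4 parts it was divided into.

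ASCRPR013743 and ASCRPR009150 had the brightest spots among the members, with a mean expression of 20.30 and 19.86. The level of ASCRPR009150 was 3.88%, 4.88%, 4.14% and 0.491% in the 4 MT rats, in order of replicate, and 5.66%, 3.83%, 7.82% and 7.26% in the NS rats. MT replicate 4 lay far below the other 7 rats, and its IP intensity of 12.52 compared with 15.10 to 15.86 elsewhere, while its SUP intensity of 20.18 was the highest of the 8. ASCRPR012050, ASCRPR007387 and ASCRPR009600 came next in brightness, with mean levels between 4.47% and 7.80% in the groups. At the dim end, ASCRPR004946, ASCRPR003227 and ASCRPR002286 had a mean expression of 9.77, 9.96 and 10.08 and group means of 5.77% to 8.27%.

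The share of a member varied more between rats than that of other circRNAs. The SD of log2(IP/SUP) within groups had a median of 0.50 over the members and 0.30 over the circRNAs that could be chosen. It was smallest for ASCRPR010146 (0.12), whose level was 3.05%, 3.22%, 3.11% and 2.77% in the MT rats and 3.81%, 3.57%, 4.43% and 4.18% in the NS rats. Every MT rat was below every NS rat, yet the change of -0.41 ± 0.13 (SE) on the log2 scale was under a fold change of 1.5 (adjusted P = 0.305, limma). ASCRPR002231 (SD 0.14) had 5.43% ± 0.482 in MT and 5.52% ± 0.515 in NS, and ASCRPR006089 (SD 0.14) had 3.41% ± 0.301 and 4.39% ± 0.427 (SD, n = 4 each). The largest SD was that of ASCRPR000684 (1.26), with a level from 1.33% in NS replicate 1 to 10.55% in NS replicate 3. ASCRPR012821 (1.22) and ASCRPR000957 (1.22) had their highest levels in NS replicates 3 and 4. For ASCRPR012821 these were 18.09% and 17.69%, with SUP intensities of 15.04 and 14.76 in these rats against 16.32 to 17.77 in the others. ASCRPR000957 reached 25.03% in NS replicate 4, where its SUP intensity was 8.71.

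The dye normalization of the scanner software depends on intensity and also touched the share. In each of the 8 rats it moved log2(IP/SUP) of the members lower relative to all circRNAs that could be chosen. The shift was -0.61, -0.473, -0.58 and -0.525 in the 4 MT rats, in order of replicate. It was -0.418, -0.458, -0.22 and -0.286 in NS replicates 1 to 4. The members were thus lowered more in every MT rat than in any NS rat, which bears on the comparison of the level below. On the signals before this step, 220 of the 300 members would have been chosen.

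The comparison of MT with NS asked whether morphine-tolerant rats differ in the m6A level, the m6A quantity, SUP or the expression of circRNAs. It used limma on the 12669 circRNAs with each fraction well above background on at least 4 arrays, which included all 300 members. A circRNA passed the criterion, when its fold change reached 1.5 with P below 0.05 before adjustment. Benjamini-Hochberg adjusted P is given beside it. Counts from an unmoderated test, which uses the variance of each circRNA alone, are also given. In total tissue RNA, fewer cells with a circRNA and less of it per cell cannot be told apart.

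SUP, the fraction that held most of the members' signal, was higher in MT for nearly all of them. Per rat, their median SUP intensity was 13.64, 13.23, 13.31 and 13.12 in the 4 MT rats, in order of replicate, and 12.96, 13.09, 11.98 and 12.20 in NS replicates 1 to 4. All 4 MT rats were above all 4 NS rats, but NS replicates 1 and 2 were close to the MT rats and NS replicates 3 and 4 lay about 1 log2 unit lower. The median change of a member was 0.85 on the log2 scale (median SE 0.30), against 0.26 over all circRNAs tested and 0.00 over the 300 with the highest IP/SUP. The SUP change was above 0 in 293 of 300 members and in 9325 of all 12669 circRNAs tested. Of the members, 169 passed the criterion as raised, or 56.3%, against a background of 15.3% of all circRNAs tested. None passed as lowered, where the background was 0.126%, and none was lower at an unadjusted P under 0.05 in limma or in the unmoderated test. The groups did not overlap, with MT above NS, in 133 members (44.3%; background 10.7%). Among the other 5214 circRNAs whose mean SUP intensity was at least that of the dimmest member, 12.6% passed as raised. Their median SUP intensity was 11.25, against 12.91 for the members, so the sets were not matched in brightness. No adjusted P was under 0.05 for any circRNA, and the smallest among the members was 0.160 (limma). Of the 300 members, 194 had an unadjusted P under 0.05 by limma (background 22.7%) and 150 in the unmoderated test (background 18.3%).

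**Figure D2:**
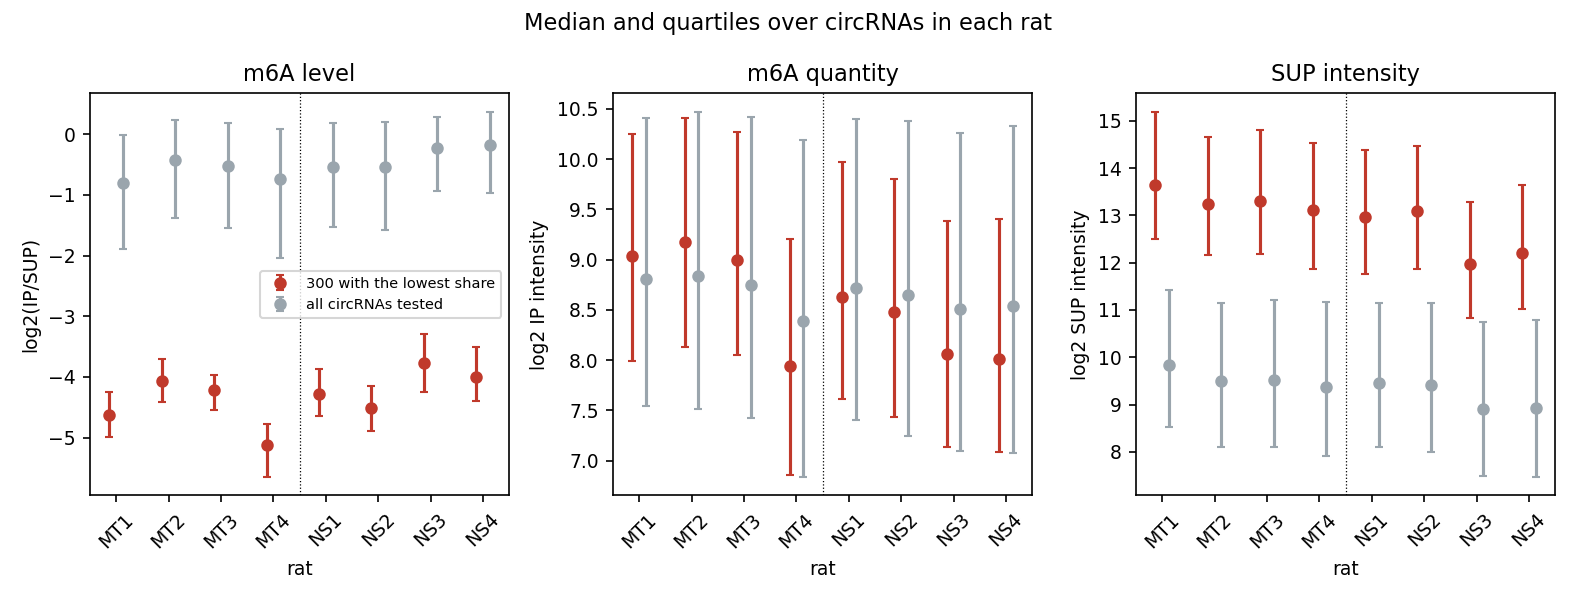
Median (points) and quartiles (bars) over the 300 members (red) and over all circRNAs tested (grey) in each rat, for log2(IP/SUP), log2 IP and log2 SUP intensity, with the MT rats left and the NS rats right of the dotted line. The members' SUP median is lowest in NS replicates 3 and 4, at 11.98 and 12.20, and their IP median lowest in MT replicate 4, at 7.95.

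The lead in SUP rested in part on NS replicates 3 and 4. Without both, 43 members passed as raised (14.3%; background then 2.41%) and the members' median change was 0.35, against 0.08 over all circRNAs tested. Leaving out NS replicate 3 alone left 109 members (36.3%; background 7.34%), leaving out MT replicate 1 left 115 (38.3%; 7.64%), and leaving out NS replicate 4 left 115 (38.3%; 7.81%), whereas 232 passed without NS replicate 2 (77.3%; 21.4%). Without MT replicate 4 the count was 162 (54.0%; 19.5%). In each of these fits but the last, the share over all circRNAs tested moved in the same direction as that of the members. The scaling moved the count too. With the 75th percentile of each array and channel set equal, the median SUP change over all circRNAs tested went from 0.26 to -0.04 and that of the members from 0.85 to 0.56. Either scaling moves all circRNAs of an array and channel by 1 constant. The members' lead of 0.60 over all circRNAs is therefore the same by construction and is no check of it. With the 75th percentile 105 members passed as raised and 1 as lowered, against backgrounds of 7.90% raised and 2.83% lowered.

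ASCRPR010628 had the smallest P in SUP. Its SUP intensity was 15.73, 15.88, 16.03 and 15.49 in the MT rats and 14.88, 15.16, 14.72 and 14.83 in the NS rats. The groups did not overlap, the change was 0.88 ± 0.16 (SE) on the log2 scale, and the adjusted P was 0.160 (limma). ASCRPR003139 followed, with a mean of 12.64 ± 0.211 in MT and 11.67 ± 0.285 in NS (SD, n = 4 each), a change of 0.97 ± 0.18 (SE). For ASCRPR006435, the circRNA with the lowest share, SUP was 16.06, 15.87, 15.73 and 15.82 in the MT rats and 15.12, 15.09, 14.32 and 14.53 in the NS rats. All MT values were higher, and the change was 1.11 ± 0.20 (SE; adjusted P = 0.160, limma). Of the 10 circRNAs with the lowest share, 8 passed the criterion as raised in SUP, against 56.3% of the members and 15.3% of all circRNAs tested. The exceptions were ASCRPR010626 (0.32 ± 0.38, SE) and ASCRPR002436 (1.05 ± 0.53, SE).

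**Figure D3:**
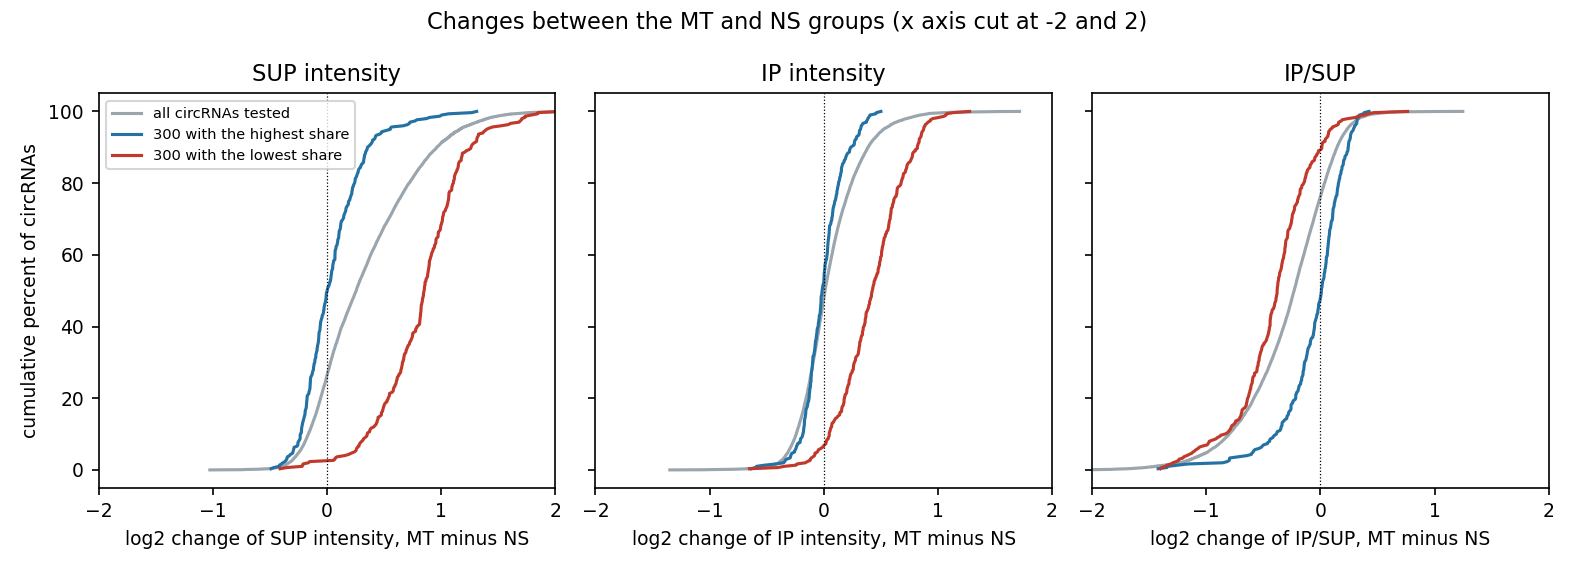
Cumulative percent of circRNAs (y axis) by log2 change, MT minus NS (x axis), of SUP, IP and IP/SUP, for the 300 members (red), the 300 circRNAs with the highest IP/SUP (blue) and all circRNAs tested (grey). The members' curve lies right of the others for SUP (median 0.85) and IP (median 0.43), and left of them for IP/SUP at most values (median -0.38).

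The m6A quantity of the members was also higher in MT, by less. Their median IP intensity was 9.04, 9.18, 8.997 and 7.95 in the 4 MT rats, in order of replicate, and 8.62, 8.48, 8.06 and 8.02 in NS replicates 1 to 4. MT replicates 1 to 3 were above all NS rats, while MT replicate 4 was below all of them. The median change was 0.43 on the log2 scale (median SE 0.30), against 0.01 over all circRNAs tested and -0.01 over the 300 with the highest IP/SUP. The IP change was above 0 in 280 of 300 members and in 6627 of all 12669 circRNAs tested. The criterion was passed by 45 members as raised (15.0%; background 1.63%) and by none as lowered (background 0.111%), and no member was lower at an unadjusted P under 0.05 in limma or in the unmoderated test. The groups did not overlap, with MT above NS, in 6 members (2.00%), below the background of 2.66%. No circRNA had an adjusted P under 0.05, the smallest among the members being 0.487 (limma). Of the 300 members, 56 had an unadjusted P under 0.05 by limma (background 10.0%) and 34 in the unmoderated test (background 10.3%). In the unmoderated test the share of the members was near the background.

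The count depended most on MT replicate 4. Without it 192 members passed as raised (background then 11.9%), and 65 members had an adjusted P under 0.05 (limma; smallest 0.0341), or 65 of 337 such circRNAs among all tested, where the background was 2.66%. Without NS replicate 3 the count was 17 (5.67%; background 0.868%) and without MT replicate 2 it was 19 (6.33%; 0.813%). Without NS replicates 3 and 4 together it was 2 (0.667%), near the background of 0.450%. Leaving out MT replicate 1, MT replicate 3 or NS replicate 4 gave 26, 25 and 24 (backgrounds 0.789%, 1.23% and 0.979%), and leaving out NS replicate 1 gave 68 (background 2.65%). The lower IP of MT replicate 4 was found over all circRNAs tested as well (8.39), to a smaller extent than in the members.

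The members named for the m6A quantity were chosen for passing the criterion with groups that do not overlap, so their separation is not a result. ASCRPR008248 had an IP intensity of 7.01, 7.21, 7.03 and 6.46 in the MT rats and 6.08, 6.29, 5.92 and 6.13 in the NS rats, a change of 0.83 ± 0.17 (SE; adjusted P = 0.487, limma). Its SUP intensity rose by 1.06 ± 0.23 (SE) by the same criterion, so that its share did not pass it, at 5.83% ± 0.493 in MT and 6.97% ± 2.11 in NS (SD, n = 4 each). ASCRPR013535 had a mean IP intensity of 7.03 ± 0.516 in MT and 5.96 ± 0.265 in NS and a level of 3.59% and 3.53%. ASCRPR008327 had 7.02 ± 0.281 and 6.33 ± 0.262, and its change of 0.69 ± 0.18 (SE) missed the criterion under several of the other settings. With median spot signals and normexp background correction, all 3 changes were between 0.22 and 0.37 and none passed.

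**Figure D4:**
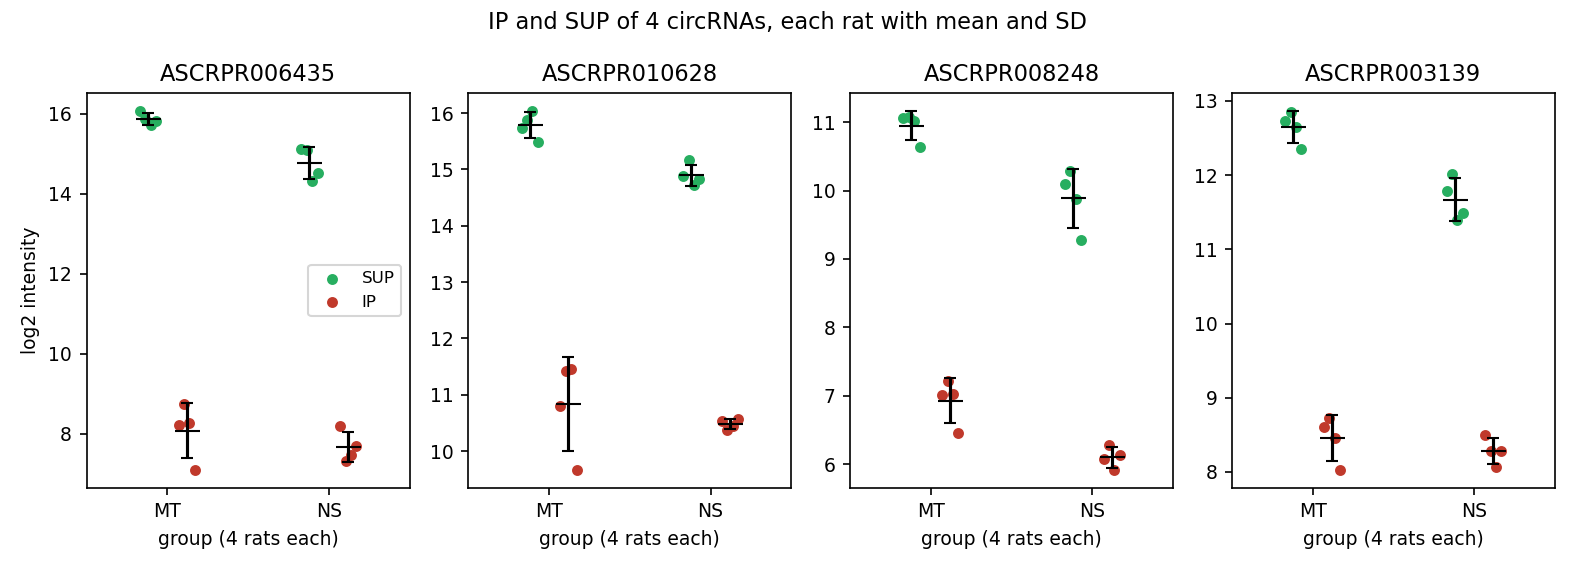
Log2 intensity (y axis, a range of its own in each panel) of SUP (green) and IP (red) in the 4 MT and the 4 NS rats for ASCRPR006435, ASCRPR010628, ASCRPR008248 and ASCRPR003139, 1 point per rat with mean and SD in black. In each panel the SUP points of MT lie above those of NS, while the IP points separate for ASCRPR008248 alone among the 4.

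The m6A level of the members was lower in MT by a small amount. Their median level was 3.87%, 5.63%, 5.09% and 2.78% in the 4 MT rats, in order of replicate, and 4.91%, 4.20%, 6.85% and 5.90% in NS replicates 1 to 4. The groups overlapped, with MT replicates 2 and 3 above NS replicates 1 and 2. The median change of log2(IP/SUP) was -0.38 (median SE 0.32), against -0.23 over all circRNAs tested and 0.01 over the 300 with the highest IP/SUP. The level was lower in MT in 267 of 300 members and in 9658 of all 12669 circRNAs tested. The criterion was passed by 29 members as lowered, or 9.67%, against a background of 8.56%, and by 1 member as raised (0.333%; background 0.118%). The groups did not overlap, with MT below NS, in 17 members (5.67%; background 8.71%). The share of members that passed was near that of all circRNAs with this processing, but not with median spot signals and normexp background correction, where 36 members passed as lowered against a background of 2.23%, nor with fold changes of mean percentages, where 27 passed against 4.43%. No adjusted P was under 0.05, and the smallest among the members was 0.286 (limma). Of the 300 members, 41 had an unadjusted P under 0.05 by limma (background 14.4%) and 26 in the unmoderated test (background 13.5%). Neither share of the members was above its background.

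The difference between the members and all circRNAs in this change also rested on MT replicate 4. Without it the median change was -0.15 for the members and -0.18 for all circRNAs tested, and 15 of the 300 members passed as lowered, a share below the background of 8.56% in that fit. Without NS replicates 3 and 4 the medians were -0.10 and -0.10, and 3 members passed (1.00%; background 2.17%). Leaving out NS replicate 3 gave 11 members (3.67%; background 4.65%), NS replicate 4 gave 14 (4.67%; 4.61%) and MT replicate 1 gave 19 (6.33%; 5.22%), while leaving out NS replicate 2 gave 54 of the 300 (background 13.1%). In these 4 fits the background moved in the same direction as the count, whereas without MT replicate 4 it stayed at 8.56%. Under the deposited values 57 members passed as lowered (background 13.3%), and under the 75th percentile 14 (background 3.04%). Before dye normalization the count was 12 (background 7.06%), and the median change was -0.24 for the members and -0.23 for all circRNAs tested.

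ASCRPR003139 had the smallest P of the members in the m6A level. Its level was 5.46%, 5.44%, 5.19% and 4.75% in the MT rats and 9.33%, 6.99%, 9.06% and 9.73% in the NS rats. The groups did not overlap and both were tight, and the change of log2(IP/SUP) was -0.80 ± 0.15 (SE; adjusted P = 0.286, limma). With the 75th percentile, with loess and Aquantile and with levels centred on the array median, the change was -0.55, -0.52 and -0.55, under a fold change of 1.5. The change lay in SUP, which changed by 0.97, while IP changed by 0.17 ± 0.17 (SE), within the spread between rats. ASCRPR004907 fell from 8.71% ± 2.17 in NS to 4.25% ± 1.06 in MT, and ASCRPR012755 from 8.79% ± 1.61 to 3.84% ± 1.58 (SD, n = 4 each), with adjusted P = 0.295 for both (limma). ASCRPR012755 missed the criterion before dye normalization and without NS replicates 3 and 4, where its change was -1.06 and -1.23. Their SUP intensities rose by 1.19 and 1.74 by the criterion, and their IP intensities differed by 0.07 and 0.35, which did not pass. ASCRPR007961, named after its values were seen as the single member raised in level, had a change of 0.76 with overlapping groups, and its SUP and IP changes did not pass the criterion.

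Expression followed SUP, which made up most of the summed signal of these circRNAs. The members' median expression was 13.71, 13.32, 13.39 and 13.18 in the MT rats and 13.03, 13.16, 12.09 and 12.26 in the NS rats, again with NS replicates 3 and 4 lowest. The median change was 0.84 on the log2 scale, against 0.16 over all circRNAs tested. There were 166 members raised by the criterion (55.3%; background 10.7%) and none lowered (background 0.0395%), with none lower at an unadjusted P under 0.05 in limma or in the unmoderated test, and the groups did not overlap, with MT above NS, in 132 (44.0%; background 8.72%). Of the other 5214 circRNAs whose mean SUP intensity was at least that of the dimmest member, 9.59% passed as raised. The smallest adjusted P of a member was 0.159 (limma), and no circRNA was under 0.05. An unadjusted P under 0.05 was found in 192 members by limma (background 20.8%) and in 152 in the unmoderated test (background 18.3%). Without NS replicates 3 and 4, 40 members passed as raised (background then 1.43%), without NS replicate 3 alone 109 (background 4.69%), without NS replicate 4 alone 111 (background 5.0%), without MT replicate 4 171 (background 18.5%), and with the 75th percentile 97 as raised (background 4.85%) and 1 as lowered (background 0.182%).

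Among the members past the criterion in expression whose groups did not overlap, ASCRPR005040, ASCRPR010628 and ASCRPR010618 had the smallest P. ASCRPR005040 had a mean expression of 11.89 in MT and 11.18 in NS, a change of 0.71 ± 0.12 (SE). ASCRPR010618 had 11.88 and 11.19, a change of 0.69 ± 0.12 (SE), and both had adjusted P = 0.159 (limma). Each change was under a fold change of 1.5 with the deposited values and with the 75th percentile. ASCRPR010628 changed by 0.87 ± 0.15 (SE).

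Taken by pattern, SUP and IP were both higher in MT in 276 of the 300 members (92.0%), against 45.6% of all circRNAs tested. SUP passed as raised without IP in 131 members (43.7%; 14.1% of all circRNAs tested), both passed in 38 (12.7%; 1.12%), and IP passed without SUP in 7 (2.33%; 0.513%). Of the 29 members lowered in level, 28 also passed as raised in SUP, and 0 passed for a change of IP in either direction. Over all circRNAs tested, 700 of the 1085 lowered in level passed as raised in SUP and 12 for a change of IP. In 122 members (40.7%) none of level, IP and SUP passed, against 80.9% of all circRNAs tested. Level, IP and SUP are linked by construction, so these counts sort the members and are not separate evidence.

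**Figure D5:**
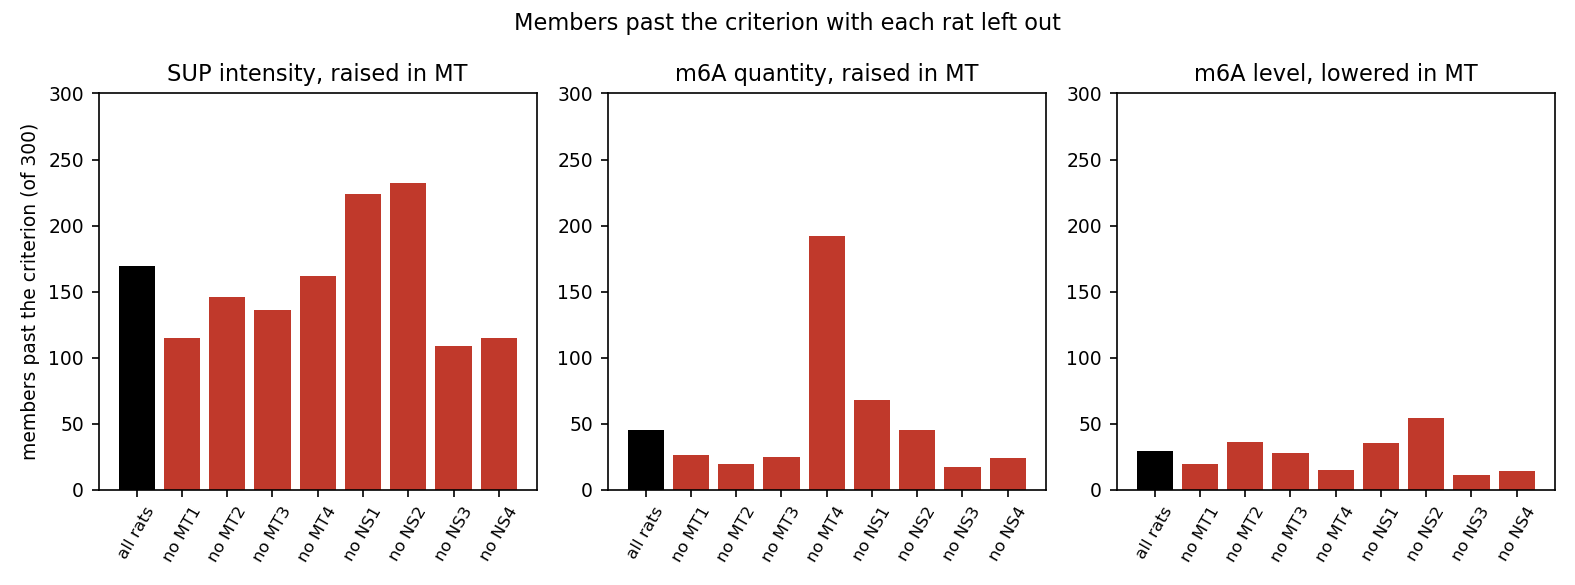
Number of the 300 members past the criterion (y axis) with all rats (black) and with each rat left out in turn (red), for SUP raised, m6A quantity raised and m6A level lowered in MT. The count for SUP runs from 109 to 232, that for m6A quantity from 17 to 192 with the top value without MT replicate 4, and that for m6A level from 11 to 54.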

How the data were processed

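Each rat gave 1 two-colour array with IP in Cy5 and SUP in Cy3. The authors deposited scanner output with the intensity of each spot, made with Agilent Feature Extraction 11.0.1.1 (background subtraction, detrending and dye normalization) along with spot marks, such as the well-above-background flag, which are other values of 0 or 1. They also deposited log2 values for 12893 circRNAs, which equal the log2 processed intensity minus 1 constant per array and channel. The deposited log2 values chose the members. Aligners, genome build and probe sequences are not given in the sources used here.

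For the comparisons, the mean log2 intensity of the 102 spike-in probes was subtracted from each array and channel and 1 constant added. The deposited constants differ from this mean, and which spike-ins or which kind of average the authors used is not known. Outlier spots were left out. limma 3.58.1 (R 4.3.3) compared the groups, taken from the labels, with no block. The fit was tested on simulated data. Tables and figures used Python 3.11.15, pandas 2.3.3, numpy 2.4.6 and matplotlib 3.10.9. P-values measure the spread between 4 rats per group.

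The members, gene lists and rules for names were chosen with earlier results of these data known. The circRNAs named are the 10 with the lowest mean, the 3 on each side of the limit, the 5 with the highest and the 3 with the lowest expression, the 3 with the largest and the 3 with the smallest SD of the level, and up to 3 per comparison and direction with the smallest P among those past the criterion whose groups do not overlap. Gene lists were not used, since no probe could be paired with a host gene. The alternatives were the deposited values, the 75th percentile, loess with Aquantile, median spot signals with normexp (offset 50), other filters on dim probes, outlier spots kept, Student's test (called unmoderated in the results), a replicate block, fold changes of mean percentages, levels centred on the array median, and leaving out each rat. The signal before dye normalization and leaving out NS replicates 3 and 4 together were chosen after seeing the data.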

Additional observations from a re-analysis of the deposited data

Results flagged for a closer look

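In 20 of 246 groups of 4 rats tested, the highest or lowest rat lay apart from the other 3 by more than a gap test allows, and chance gives about 1 in 20 groups. Values of the same rat recur among them. The cause was not tested.

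MT replicate 4 stood apart in 11 of these. Its median IP intensity over the members was 7.95, against 8.997 to 9.18 in the other MT rats. Its IP intensity was 5.58 for ASCRPR001879 (others 6.78 to 6.79), 7.88 for ASCRPR005322 (9.15 to 9.38) and 9.03 for ASCRPR005318 (10.10 to 10.20). It was 12.52 for ASCRPR009150 (15.39 to 15.86), 6.29 for ASCRPR000957 (7.95 to 8.05) and 10.24 for ASCRPR012821 (13.44 to 13.72). Its log2(IP/SUP) was -7.66 for ASCRPR009150 (-4.63 to -4.28), -5.20 for ASCRPR004907 (-4.35 to -4.28) and -6.004 for ASCRPR012755 (-4.51 to -4.22). All of these values lay below those of the other MT rats. In SUP, it was low for ASCRPR008248, at 10.63 (11.01 to 11.08).

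MT replicate 1 stood apart in SUP for ASCRPR002286, at 9.37 (10.52 to 10.74), and for ASCRPR002231, at 12.08 (11.24 to 11.27), and in expression for ASCRPR004946, at 10.37 (9.87 to 9.93).

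Among the NS rats, log2(IP/SUP) of NS replicate 2 was -7.77 for ASCRPR006435 (-6.94 to -6.83) and -4.78 for ASCRPR010628 (-4.35 to -4.26). NS replicate 3 was at -5.40 for ASCRPR005322 (-5.96 to -5.93) and -3.13 for ASCRPR004946 (-3.78 to -3.69). NS replicate 4 was at -3.15 for ASCRPR008248 (-4.02 to -3.96), and its IP intensity was 16.71 for ASCRPR013743 (16.12 to 16.17).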

How the results depend on the processing

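The members' median change kept its sign under every setting run, positive for SUP, IP and expression and negative for the level. Relative to all circRNAs tested, the members' median lay 0.28 to 0.74 higher in SUP, 0.32 to 0.82 in expression and 0.21 to 0.65 in IP, while for the level the difference ran from -0.28 to 0.03 and was positive without MT replicate 4. Among the 234 settings run for the changes the named members were chosen for, 210 kept the call, 24 lost it and 0 changed sign. The call was lost under 6 settings for ASCRPR008327 in IP, 5 each for ASCRPR005040 and ASCRPR010618 in expression, 3 for ASCRPR003139 and 2 for ASCRPR012755 in the level, and 1 each for ASCRPR008248 and ASCRPR013535 in IP and ASCRPR010628 in expression. The rule chose 258 of the 300 members again with a filter on 4 arrays, 267 with normexp, 289 with loess, 220 before dye normalization and 291 to 295 without a single rat.

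Counts of members past the criterion moved more, and the share of all circRNAs tested is given in parentheses after each. For SUP raised, 169 with the main setting (15.3%), they were 105 with the 75th percentile (7.90%), 109 to 232 without a single rat (7.34% to 27.3%) and 43 without NS replicates 3 and 4 together (2.41%), which also took the median change of the members to 0.35. SUP lowered went from 0 (0.126%) to 1 with the 75th percentile (2.83%), with loess and Aquantile (3.85%) and without NS replicates 3 and 4 (0.458%), below the share of all circRNAs in each. For expression raised, 166 (10.7%), they were 97 with the 75th percentile (4.85%), 109 to 228 without a single rat (4.69% to 18.8%) and 40 without NS replicates 3 and 4 (1.43%), where the median change was 0.35. Expression lowered went from 0 (0.0395%) to 1 under the same 3 settings as SUP (0.182%, 0.363% and 0.142%). For IP raised, 45 (1.63%), they were 29 with the deposited values (0.884%), 21 with normexp (0.229%), 28 with Student's test (1.01%), 17 to 192 without a single rat (0.789% to 11.9%) and 2 without NS replicates 3 and 4 (0.450%). For the level lowered, 29 (8.56%), they were 57 with the deposited values (13.3%), 36 with normexp (2.23%), 27 with fold changes of mean percentages (4.43%), 14 with the 75th percentile (3.04%), 11 with loess and Aquantile (2.48%), 12 before dye normalization (7.06%), 15 with Student's test (5.61%), 15 when centred (3.24%), 11 to 54 without a single rat (4.61% to 13.1%) and 3 without NS replicates 3 and 4 (2.17%). The level raised went from 1 (0.118%) to 3 with the 75th percentile (1.43%) and with loess and Aquantile (2.20%), 0 with normexp (0.0%), 2 when centred (1.36%), 0 to 2 without a single rat (0.0789% to 0.339%) and 0 without NS replicates 3 and 4 (0.545%), so that the increases stayed below the share of all circRNAs, except the 2 members without NS replicate 2 (0.126%). Apart from the rats left out, whose own values are given above, the cause was not tested.

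Rats of the same replicate number did not deviate together in every pair. The correlations of pairs 1 to 4 were 0.34, -0.35, 0.23 and 0.09 over the level, 0.46, -0.02, -0.01 and 0.43 over IP, 0.62, -0.21, -0.11 and 0.57 over SUP, and 0.65, -0.08, -0.13 and 0.58 over expression. Pair 2 was below 0 in each, so the numbers were not taken to pair the rats. With the replicate block, 68 members passed as raised in IP (2.45% of all circRNAs tested), 215 in SUP (24.0%) and 214 in expression (16.8%), and 29 passed as lowered in the level, or 9.67% of the members against 9.64% of all.

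The precision is limited by 4 rats per group and 1 spot per circRNA, and the filter on IP leaves out dim circRNAs with a low share.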
